A study of Sus scrofa with 15 samples.

Results

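PRNP and PRND are neighbouring genes of the prion family, and they are 2 of the 30477 Ensembl genes counted in backfat of Iberian pigs. Both were taken by their symbols, PRND as ENSSSCG00000032923 and PRNP as ENSSSCG00000048919, and PRND was chosen by its counts in these libraries, as the gene with the largest clean rise in pigs fed dry olive pulp over control pigs. Its level in that comparison is therefore described without a test. PRNP was taken as its relative, whatever its own level.

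The study asked how feeding olive by-products changes the transcriptome of subcutaneous fat. Each of 15 libraries came from the backfat of a single pig of the Iberian breed, with 5 pigs in each of 3 diets. The control diet (C) was a compound feed, the DOP diet a compound feed made with dry olive pulp, and the WCOC diet a compound feed without by-product plus a freely offered silage of wet crude olive cake and straw. Pigs were on the diets through the growing period, the amounts of compound feed were set for each group, and each diet was housed in its own pen, so that diet and pen cannot be told apart. The biopsies were chosen for the quantity and quality of their RNA. Neither sex nor litter is given in the labels.

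PRNP encodes the cellular prion protein, PrP, a glycoprotein held on the cell surface by a glycosylphosphatidylinositol (GPI) anchor, which binds copper through a repeated segment near its start and misfolds in the transmissible spongiform encephalopathies. It is known to be widely transcribed, most of all in the nervous system. PRND encodes Doppel, a shorter GPI-anchored protein with the same kind of folded domain but without the copper-binding repeats. Doppel is known mainly from the testis, where it is needed for male fertility in mice, and in mice that lack a stretch of the Prnp gene, transcripts that start at the Prnp promoter can be spliced into Prnd.

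On the Sscrofa11.1 assembly the RefSeq annotation places both genes on the plus strand of chromosome 17. PRNP spans 13694195 to 13705126 and PRND spans 13729715 to 13735485, with 24.59 kb between them. The coding part of PRND lies within its second exon, which begins at 13732293 and holds 3193 bases, and the first exon holds 76 bases. Neither gene is overlapped by another annotated gene (0 for each). The count files name genes by Ensembl identifiers without positions, so the link from an identifier to these positions rests on the gene symbol.

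The 250 bases before the annotated start of each gene are shown because the genes lie so near each other, while the DOP libraries stand apart for PRND and overlap the others for PRNP. Letters in capitals mark matches, on either strand, to the TATA box (TATAAA), the CCAAT box, the GC box (GGGCGG), the E box (CANNTG) and the motif of PPAR receptors (AGGTCA), and neighbouring matches can run together. The windows cover chr17:13693945-13694194 for PRNP and chr17:13729465-13729714 for PRND, plus strand, Sscrofa11.1.
PRNP: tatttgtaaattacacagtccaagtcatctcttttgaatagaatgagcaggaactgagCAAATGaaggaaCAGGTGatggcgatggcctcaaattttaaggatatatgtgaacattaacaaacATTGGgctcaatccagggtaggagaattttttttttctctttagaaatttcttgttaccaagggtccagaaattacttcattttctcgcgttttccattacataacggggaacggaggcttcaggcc
PRND: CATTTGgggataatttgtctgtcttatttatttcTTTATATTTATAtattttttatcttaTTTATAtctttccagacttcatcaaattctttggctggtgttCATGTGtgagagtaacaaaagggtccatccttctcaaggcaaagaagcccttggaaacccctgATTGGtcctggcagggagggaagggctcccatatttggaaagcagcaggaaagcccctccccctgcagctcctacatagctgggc
Both windows were poor in G and C, at 38.4% for PRNP and 42.8% for PRND, where the median over 19531 such windows of the assembly was 57.6%. The PRND window held 0 CpG dinucleotides and the PRNP window 5. The TATA box letters occurred 3 times before PRND and 0 times before PRNP, and 9.76% of all windows held them. Each gene had 1 match to the CCAAT box, found in 31.9% of windows, and 2 to the E box, found in 61.9%. The GC box and the PPAR letters, present in 45.9% and 12.2% of windows, were in neither. These are matches of letters and not sites of binding.

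PRND was scarce in control fat. In C replicates 1 to 5 it had 5, 9, 11, 2 and 1 counts, which is 0.2451, 0.3843, 0.3502, 0.07788 and 0.03312 CPM (counts scaled to the size of each library, with TMM factors between libraries). No control library reached 0.5 CPM, and the lowest count, 1, has an exact 95% Poisson interval of 0.02532 to 5.572 counts, which covers counting error only.

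In DOP replicates 1 to 5 the same gene had 120, 110, 41, 43 and 106 counts, or 4.818, 4.149, 1.265, 1.614 and 3.693 CPM. Every DOP library lay above every control library, and the lowest DOP value was 3.292 times the highest control value. The DOP libraries fell into 3 high ones and 2 lower ones, replicates 3 and 4, and the highest was 3.809 times the lowest. The mean was 3.108 ± 1.579 CPM (SD, n = 5) in DOP and 0.2181 ± 0.1579 CPM in C, a ratio of the means of 14.25. The edgeR fit gave a log2FC of 3.82 with a standard error (SE) of 0.58. These are the values for which the gene was picked. Among all 14918 genes kept by the filter on low counts, DOP lay wholly above C in 1.70% and 0.215% were called higher, where a call needed a log2FC of 0.58 or more in size with an adjusted p below 0.05. In whole backfat, more cells that make a transcript and more of it per cell cannot be told apart.

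WCOC, the other olive diet, did not show this level. PRND had 6, 5, 17, 3 and 9 counts in WCOC replicates 1 to 5, or 0.1963, 0.1871, 0.5547, 0.09524 and 0.2654 CPM. Replicate 3 was the only WCOC library above all controls, and the other 4 lay inside the range of the controls. The mean was 0.2597 ± 0.1756 CPM (SD, n = 5), and the log2FC against C was 0.27 with an SE of 0.63, which is smaller than its error. Without WCOC replicate 3 it was −0.20. The control libraries that helped to pick the gene enter this difference too, so no test is given.

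Against DOP, PRND was lower in WCOC by a log2FC of −3.55 (SE 0.56), and the lowest DOP library was 2.28 times the highest WCOC library. WCOC lay wholly below DOP in 4.77% of all tested genes, and 5.11% were called lower. The order of the PRND means was thus C, WCOC and DOP, where C and WCOC differed by less than their spread and DOP stood apart from both. In 57 of the 14918 genes (0.3821%) every DOP library lay above all other libraries. PRND is among them, and its ratio of the lowest DOP library to the highest other library, 2.28, was the largest of the 57. It was picked for its rise in DOP, so this too is a description. By the log2FC of DOP against C it ranked 5 from the highest of all tested genes.

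**Figure D1:**
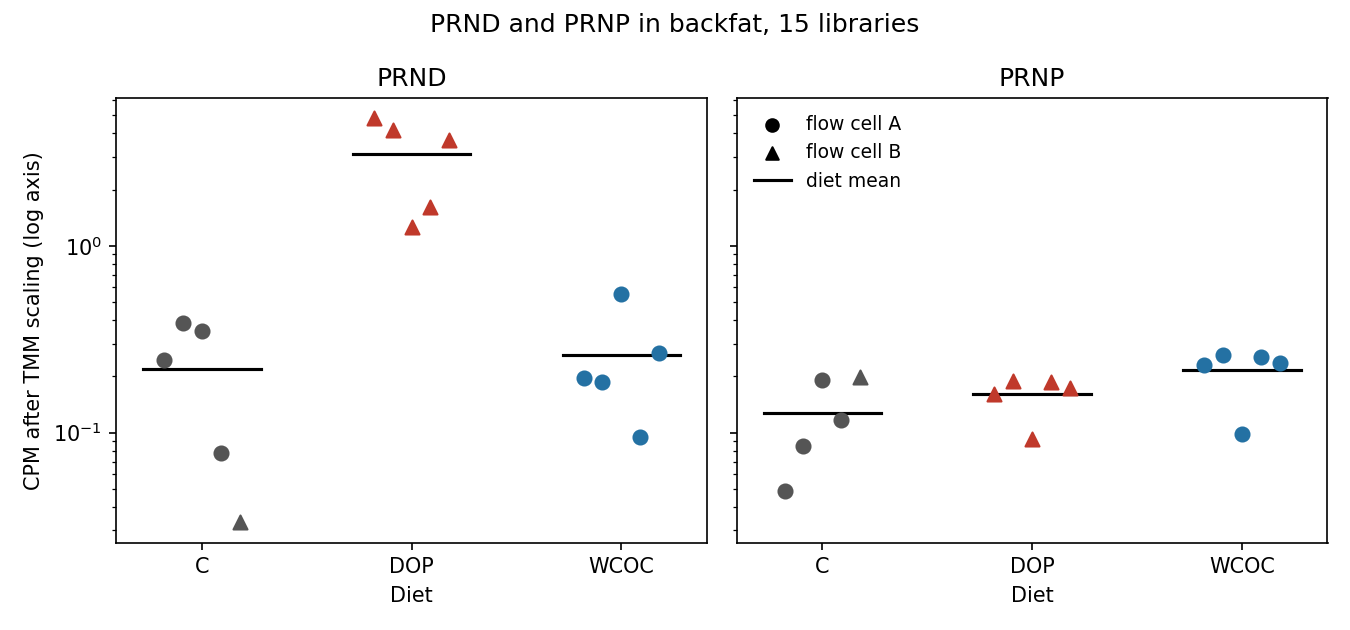
Level of PRND and PRNP (CPM after TMM scaling, log axis) in each of the 15 libraries by diet, where circles and triangles mark flow cells A and B and lines mark diet means. PRND lies between 1.265 and 4.818 CPM in DOP and at or below 0.5547 CPM elsewhere, while the 3 diets overlap for PRNP.

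PRNP was hardly counted in any diet. C replicates 1 to 5 had 1, 2, 6, 3 and 6 counts, DOP replicates 4, 5, 3, 5 and 5, and WCOC replicates 7, 7, 3, 8 and 8. The 3 ranges overlap, and 4 of the 5 WCOC libraries lay above every control. The means were 0.1282 ± 0.06547 CPM in C, 0.1607 ± 0.03979 CPM in DOP and 0.2157 ± 0.0672 CPM in WCOC (SD, n = 5 each). PRNP did not pass the filter on low counts, so 1 of the 2 members was tested among the 14918 genes, and its differences come from a fit to all 22920 genes with at least 1 count. There the log2FC was 0.25 (SE 0.43) for DOP against C, given without a test because this comparison chose its neighbour. For WCOC against C it was 0.68 (SE 0.41), with an adjusted p of 0.3915 by the quasi-likelihood test of edgeR, and for WCOC against DOP 0.43 (SE 0.40), with an adjusted p of 0.5455. Neither passed the threshold, and the 95% interval of the first, −0.12 to 1.48, does not exclude a rise of more than 1 on the log2 scale.

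The level of PRNP goes against its name as a widely transcribed gene. Of the 14864 genes with a symbol, 14.85% had no more than 8 counts in any library, the highest count of PRNP. Between 2.35% and 3.322% of the read pairs of a library were ambiguous between genes and were assigned to none, and further genes are listed without a symbol. Whether reads of PRNP were among these was not tested, so the values belong to the identifier that carries the symbol and not with certainty to all transcripts of the gene. TMEM230, which lies 390.2 kb beyond PRND, also had few counts, 8 to 22 in any library.

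Per kilobase of annotated exon, the PRND level averaged 0.06672 CPM in C, 0.07945 in WCOC and 0.9507 in DOP, and the PRNP level 0.04335, 0.07295 and 0.05435. On this scale both genes were near each other in C and in WCOC, and PRND alone was higher in DOP. Across the 15 libraries the log2 CPM of the pair had a Pearson r of −0.08 and a Spearman rho of −0.38, a description over libraries that share the diets.

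Libraries of the same diet differed in PRND by more than counting error. Its coefficient of variation was 50.82% in DOP where Poisson counting alone gives 10.94%, 72.37% against 42.66% in C, and 67.63% against 35.43% in WCOC. PRNP varied no more than counting error gives, by 51.08% against 53.21% in C, 24.75% against 47.82% in DOP and 31.15% against 39.01% in WCOC. Spread beyond counting error was thus measured for PRND and was not detectable for PRNP at this depth, with 22373715 to 34745218 counts on genes per library. With 1 library per pig, differences between pigs, biopsies and library preparations cannot be told apart.

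Flow cells and lanes were inferred here from fields of the run identifiers. On that reading, flow cell B carried every DOP library together with a single control, C replicate 5. The 4 remaining controls and the 5 WCOC libraries were run on flow cell A. Flow cell and diet can therefore hardly be told apart. That control was the lowest of all libraries for PRND, with 1 count beside 41 to 120 counts in the DOP libraries of the same flow cell. With the libraries of flow cell B alone the log2FC was 6.35 (SE 1.38), and with flow cell as a covariate 6.37 (SE 1.42). Both rest on that 1 count. Within flow cell A, WCOC replicates 4 and 5 were in lane 8 and the other libraries in lane 2.

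Because Doppel is a testis protein, PRND was set beside transcripts of the Y chromosome. The summed level of KDM5D and EIF1AY, both Y-linked, was above 10 CPM in 9 of the 15 libraries, 3 of C, 4 of DOP and 2 of WCOC, and at most 0.8254 CPM in the other 6. DOP replicate 5 had 0 CPM of both and 3.693 CPM of PRND. DOP replicates 1 to 4 had 46.65 to 49.41 CPM of both, with PRND at 1.265 to 4.818 CPM. In C the 3 libraries with the Y-linked transcripts had 0.2451 to 0.3843 CPM of PRND and the 2 without had 0.03312 and 0.07788 CPM, and in WCOC the values were 0.1871 and 0.5547 CPM in the 2 with and 0.09524 to 0.2654 CPM in the 3 without. Every DOP library lay above every C and WCOC library in PRND, the gene picked for its rise in DOP. The same therefore holds for any split of the DOP libraries, and no conclusion on the Y-linked transcripts follows from it. Centred on diet means, the log2 summed level of KDM5D, EIF1AY and AMELY had a Pearson r of 0.45 with PRND. The relation of PRND to these transcripts was not tested. With that log2 summed level as a covariate, chosen after seeing the data, the log2FC of PRND in DOP against C was 3.85 (SE 0.57). This value belongs to the comparison that picked the gene and is a description.

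Muscle transcripts also differed between libraries. The summed level of 6 skeletal muscle genes, with ACTA1 as the most abundant per kilobase, ran from 48.2 to 3912 CPM in C, 36.58 to 50530 CPM in DOP and 19.09 to 745.2 CPM in WCOC. In DOP replicates 1 to 5 it was 36.58, 11080, 238.4, 6525 and 50530 CPM, beside PRND at 4.818, 4.149, 1.265, 1.614 and 3.693 CPM. The highest PRND level of the diet was thus in the library with the lowest muscle level, the next 2 in the libraries with the highest muscle levels, and the lowest in a library with a low muscle level. The median log2FC of the 6 genes was 3.50 in DOP against C, where edgeR called 0 of them and 0.764% of all genes. In WCOC against DOP the median was −5.88, and 4 were called lower (MYL1, TNNT3, TNNC2 and NEB), as were 5.11% of all genes. The part of muscle in the PRND level was not tested. With the muscle level as a covariate, chosen after seeing the data, the log2FC of PRND in DOP against C was 3.87 (SE 0.60). This value belongs to the comparison that picked the gene and is a description.

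**Figure D2:**
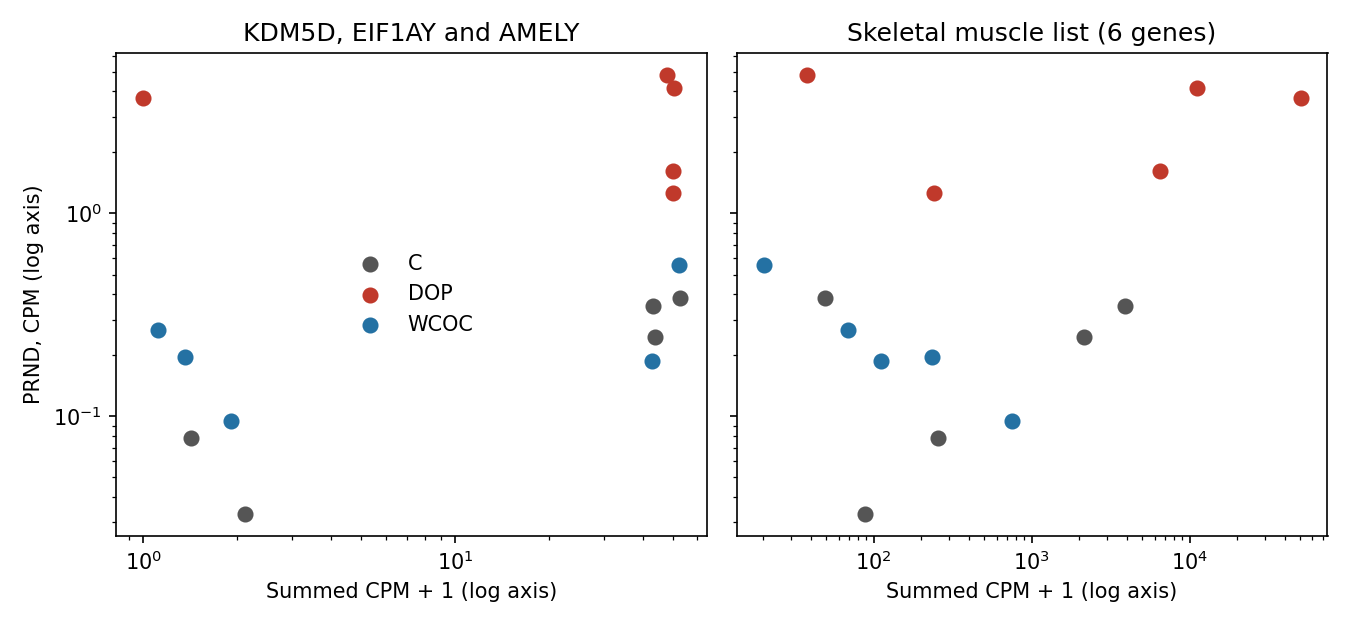
PRND (CPM, log axis) against the summed CPM plus 1 (log axis) of the Y-linked genes KDM5D, EIF1AY and AMELY (left) and of 6 skeletal muscle genes (right), 1 point per library and 1 colour per diet. The DOP libraries lie above all others in PRND, which was picked for its rise in DOP, and 1 DOP library lies at the low end of the left axis.

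The samples carried the markers of fat, as labelled: all 8 adipocyte genes of the list were counted, with a summed level of 12570 to 22060 CPM. ADIPOQ, the adiponectin gene, averaged 3690 ± 548.8 CPM in C, 5490 ± 918.6 in DOP and 5846 ± 1352 in WCOC. By edgeR 0 of the 8 were called in DOP against C, and 1, ADIPOQ, was called higher in WCOC against C. The summed level of 10 endothelial genes, led by PECAM1, was 1157 to 1454 CPM in C, 1486 to 1899 CPM in DOP and 1288 to 2065 CPM in WCOC, so that DOP lay wholly above C, and WCOC overlapped both. By edgeR 0 of these 10 genes were called in DOP against C, where 0.764% of all genes were, and 2 of 10, CLDN5 and ERG, were called higher in WCOC against C, where 2.33% of all genes were. The 9 nerve and Schwann cell genes summed to 382.1 to 506.5 CPM in C, 420.8 to 497.8 in DOP and 374.2 to 491 in WCOC, and the 3 ranges overlap. The 10 macrophage genes summed to 325.8 to 1024 CPM in C, 208.7 to 499.5 in DOP and 157.6 to 394.2 in WCOC. The 5 mast cell genes summed to 27.06 to 47.95 CPM in C, 35.99 to 65.36 in DOP and 35.21 to 42.03 in WCOC. Their log2 sum had the highest Pearson r with PRND of all the lists, 0.48, and 0.10 after centring on diet means. Of the 5, edgeR called 1, KIT, higher in DOP and in WCOC against C, where 0.215% and 2.33% of all genes were. The part of these cell types in the PRND level was not tested.

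The measured genes around PRND were called in no comparison. Of the annotated genes that start or end within 500 kb, 5 besides PRNP had a symbol in the count files and were tested, and 0 of them were called in DOP against C (0.764% of all genes were), in WCOC against C (6.25%) or in WCOC against DOP (7.76%). The nearest is RASSF2, which encodes a Ras-association domain protein and begins 37.8 kb beyond PRND on the minus strand. It had 11.27 ± 3.045 CPM in C, 11.2 ± 3.03 in DOP and 8.261 ± 1.367 in WCOC (SD, n = 5), a log2FC of −0.01 (SE 0.21) for DOP against C with an adjusted p of 0.9866 by edgeR. SLC23A2, a transporter of vitamin C, was at 43.76 ± 3.979 CPM in C and 42.45 ± 5.737 in DOP, and at 54.22 ± 6.775 in WCOC, where its log2FC of 0.35 against DOP had an adjusted p of 0.04254 but was under the limit of 0.58. CDS2, an enzyme of phosphatidylinositol synthesis, PSD3 and TMEM230 had log2FC values of −0.05 (SE 0.13), −0.03 (SE 0.16) and 0.08 (SE 0.27) in DOP against C. Per kilobase, PRND in DOP was at 0.9507 CPM, where PSD3 was at 1.261, RASSF2 at 1.604 and CDS2 at 40.22 CPM.

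**Figure D3:**
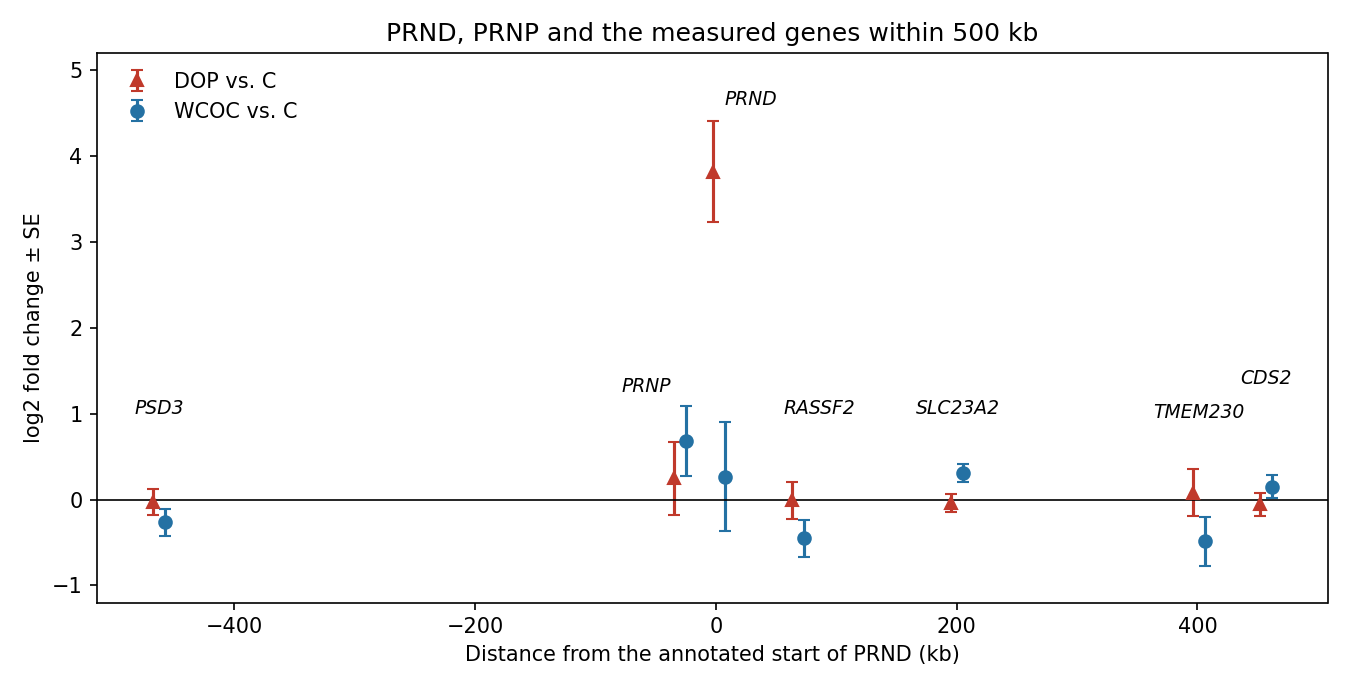
Log2 fold change (± SE) of PRND, PRNP and the 5 measured neighbours against distance from the annotated start of PRND in kb, for DOP vs. C (triangles) and WCOC vs. C (circles). Points sit at the middle of each gene (PSD3 at its near end), shifted by 5 kb to either side to keep them apart. PRND in DOP lies at 3.82 and each other point between −0.49 and 0.68.

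SPRN, the third gene of the prion family, had no identifier with that symbol in the count files and was not analysed here. The zinc transporters of the ZIP family, from which prion genes are thought to descend, were measured for SLC39A5, SLC39A6 and SLC39A10. By edgeR 0 of the 3 were called in any comparison, and 1, 1 and 0 of them had an unadjusted p below 0.05 in DOP against C, WCOC against C and WCOC against DOP. Over all 14918 genes 0.764%, 6.25% and 7.76% were called, and 2623, 3931 and 4196 genes had such an unadjusted p. DESeq2, which called 496 of all 14918 genes in DOP against C, called 1 of the 3 there. It was SLC39A6, which was at 18.96 ± 6.283 CPM in C, 12.48 ± 1.513 in DOP and 14.03 ± 0.7883 in WCOC, and its log2FC in DOP of −0.61 (SE 0.18) had an adjusted p of 0.1178 by edgeR and 0.03306 by DESeq2.

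Among genes for proteins that bind or cut PrP or Doppel, 15 of 17 were tested. In DOP against C, 0 were called higher and 1 lower (0.550% of all genes were), with a median log2FC of −0.02 beside 0.01 over all genes. In WCOC against C, 0 were called higher and 1 lower (3.93% of all genes were), with a median of −0.06. In WCOC against DOP 0 were called by edgeR and by DESeq2, with 2 and 3 at an unadjusted p below 0.05 (median −0.14). Of all 14918 genes edgeR called 7.76% and DESeq2 called 1424, and 4196 by edgeR and 4373 by DESeq2 had such an unadjusted p. The call was ADAM8 each time, a surface protease that is also made by macrophages. It fell from 13.6 ± 10.2 CPM in C to 2.61 ± 0.9436 in DOP (log2FC −2.39, SE 0.48, edgeR adjusted p = 0.03783) and 3.535 ± 1.321 in WCOC (log2FC −1.95, SE 0.47, adjusted p = 0.01928). The DOP call was lost without any of C replicates 3 and 5 and DOP replicates 2, 3, 4 and 5, with adjusted p up to 0.1142, and the WCOC call without C replicates 3 and 5 or WCOC replicate 1, up to 0.05557. Of the macrophage list named above, 2 of 10 genes were called lower in DOP and 5 of 10 in WCOC.

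ADAM10, the main protease that sheds PrP, was at 74.93 ± 7.635, 77.07 ± 6.737 and 82.38 ± 7.602 CPM in C, DOP and WCOC, and its log2FC in DOP was 0.04 (SE 0.09, adjusted p = 0.8579). The most abundant of the list per kilobase was RPSA, the laminin receptor that binds PrP, at 687.3 ± 210.5, 630.2 ± 101.3 and 519.5 ± 108.2 CPM. KDR, the endothelial VEGF receptor that Doppel has been described to bind, was at 132.7 ± 20.68 CPM in C and 173 ± 26.67 in DOP (log2FC 0.38, SE 0.21, adjusted p = 0.3718). ADGRG6, a receptor that the start of PrP activates on Schwann cells, was at 15.38 ± 2.936 CPM in C and 22.09 ± 4.182 in DOP (log2FC 0.52, SE 0.18, adjusted p = 0.1579).

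Both proteins need a GPI anchor. Of 30 genes of anchor synthesis, attachment and remodelling, 23 were tested, and 0 were called in each of the 3 comparisons, where 0.764%, 6.25% and 7.76% of all genes were, with medians of −0.05, 0.04 and 0.04. PIGC, the most abundant of them per kilobase and part of the enzyme of the first step, stood at 73.62 ± 4.451 CPM in C and 73.62 ± 5.845 in DOP. GPAA1 and PIGK, of the complex that attaches the anchor, had log2FC values of 0.09 (SE 0.11) and 0.03 (SE 0.12) in DOP. Of 18 genes of copper handling 17 were tested and 0 were called in each comparison (medians −0.06, −0.07 and −0.15). SOD1, the copper and zinc superoxide dismutase and the most abundant copper gene per kilobase, was at 193.8 ± 24.95, 221.9 ± 30.91 and 174.3 ± 31.91 CPM in C, DOP and WCOC. ATP7B, a copper-exporting pump, had a log2FC of 0.57 (SE 0.18, adjusted p = 0.1419) in DOP. DESeq2 called 0 genes of these 2 lists as well, where it called 496, 1181 and 1424 of all genes in the 3 comparisons. At an unadjusted p below 0.05 both tools had 2, 1 and 3 anchor genes and 4, 3 and 4 copper genes in DOP against C, WCOC against C and WCOC against DOP, beside 2623, 3931 and 4196 of all 14918 genes by edgeR.

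Genes of testis and germ cells were looked at because Doppel is best known from the testis. Of 25 such genes 24 had an identifier and 9 were tested. By edgeR 0 of 9 were called in DOP against C (median log2FC −0.02), and 2 had an unadjusted p below 0.05. Over all 14918 genes edgeR called 0.764%, and 2623 had such a p. DESeq2 called 1 of the 9, STAR, with an adjusted p of 0.0425, and 496 of all 14918 genes. The most abundant per kilobase was AMH, a hormone of Sertoli cells, at 40.54 ± 6.194 CPM in C and 34.03 ± 2.803 in DOP. STAR, which brings cholesterol into mitochondria for steroid synthesis, was at 22.96 ± 7.756 CPM in C, 43.61 ± 22.04 in DOP and 21.6 ± 4.608 in WCOC. It was called lower in WCOC than in DOP (log2FC −1.01, SE 0.30, adjusted p = 0.04089), where 5.11% of all genes were called lower. The call was kept in 3 of the 10 fits that leave out 1 library and lost without DOP replicate 3 or 5 or any WCOC replicate, with adjusted p up to 0.1014. ADAM2, a sperm surface protein, was called higher in WCOC than in C (2.127 ± 0.6659 against 1.031 ± 0.146 CPM, log2FC 1.04, SE 0.27, adjusted p = 0.02695), as were 2.33% of all genes. This call was kept in 5 of 10 such fits and lost without C replicates 1, 3 or 5 or WCOC replicates 1 or 3, with adjusted p up to 0.07715. In DOP it was at 1.632 ± 0.4963 CPM (adjusted p = 0.2255).

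The genes whose log2 CPM followed that of PRND most closely over the 15 libraries, among 11132 named genes with a mean of at least 1 CPM, were LRGUK (Pearson r = 0.91, Spearman rho = 0.95), NADK2 (0.87 and 0.85), COL4A1 (0.85 and 0.71), SPRY2 (0.85 and 0.73) and ADAMTSL3 (0.84 and 0.78). All 5 averaged higher in DOP than in both other diets, so that the difference between diets enters these values. LRGUK, known for its need in sperm formation in mice, was at 2.027 to 2.787 CPM in DOP and 0.9273 to 2.263 CPM elsewhere, with log2FC 0.67 (SE 0.24) for DOP against C and −0.81 (SE 0.24) for WCOC against DOP. Since these genes were taken for following PRND, their differences between diets are described without a test. COL4A1, a chain of basement membrane collagen, averaged 1905 CPM in C, 2752 in DOP and 1889 in WCOC, and its DOP libraries (2469 to 3014 CPM) lay above all others (1550 to 2307 CPM). SPRY2, an inhibitor of growth factor signalling, averaged 25.29, 35.95 and 23.91 CPM, with DOP libraries at 30.14 to 43.3 CPM and all others at 22.29 to 27.11 CPM. These shifts were far smaller than that of PRND: the log2FC of DOP against C was 0.53 (SE 0.12) for COL4A1 and 0.51 (SE 0.10) for SPRY2.

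With each library centred on the mean of its diet, LRGUK was again first (r = 0.86, rho = 0.85), followed by CHRNE (0.73 and 0.65), HPSE2 (0.73 and 0.74), LIX1 (0.71 and 0.63) and DERA (0.70 and 0.67). LRGUK, at a mean of 1.51 CPM in C, thus had the highest r of 11132 genes in both rankings. Both rankings share the differences between pigs within diets, and whether chance gives such an r was not tested. PRND had only 1 to 17 counts in the C and WCOC libraries, so counting error enters its values too. For PRNP the closest over the 15 libraries were MAN1C1, EVL, ZFPM1, GARIN5A and RBM22 (r from 0.74 to 0.85), and after centring SRGN, TRIM26, ARSB, MAN1C1 and COTL1 (r from 0.82 to 0.89). With at most 8 counts of PRNP in a library, these values describe counting error as much as the gene.

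**Figure D4:**
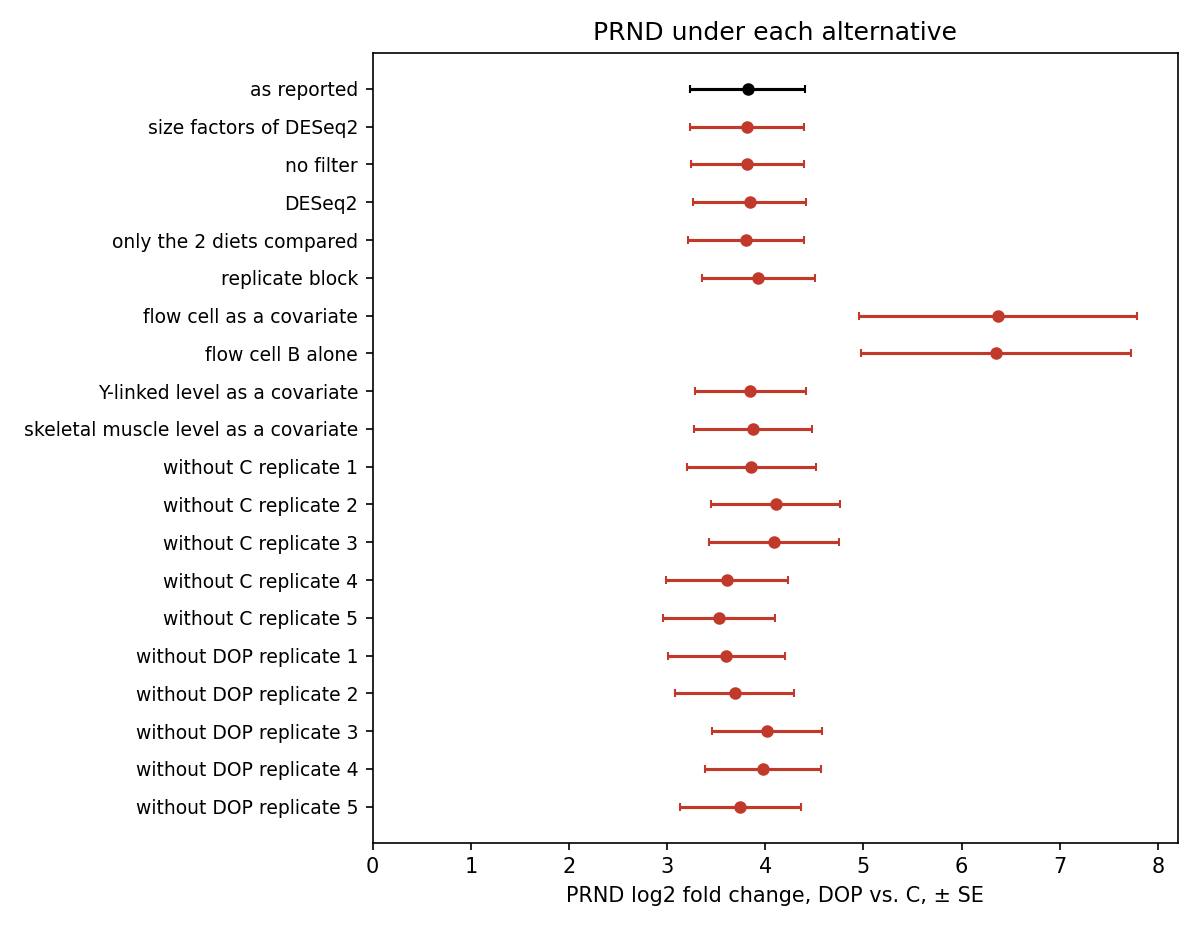
PRND log2 fold change (± SE) for DOP vs. C as reported (black) and under each alternative that gave a value (red). The values without 1 library lie between 3.52 and 4.11, and those with flow cell as a covariate or with flow cell B alone lie at 6.37 and 6.35.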

How the data were processed

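Backfat RNA of 15 pigs was sequenced as paired ends. Per the labels and the study's methods, the authors aligned untrimmed reads to Sscrofa11.1 with HISAT2, set for stranded libraries, and deposited raw counts of read pairs per Ensembl gene from HTSeq. Which versions of the tools and of the Ensembl annotation were used is not given in the sources used here. Each file lists 30477 genes and 5 summary lines, which hold 23.43% to 32.82% of a library and were left out. Symbols came from a reference table (14864 matched), and positions, exon lengths and sequences from RefSeq on Sscrofa11.1.

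Counts were analysed with edgeR 4.0.16 in R 4.3.3: filterByExpr, TMM, and a quasi-likelihood fit to all 15 libraries with 1 mean per diet (common dispersion 0.08137), two-sided, with Benjamini-Hochberg adjustment. Genes were called at a log2FC of 0.58 or more in size with an adjusted p below 0.05. The log2 CPM used a prior count of 1. PRNP failed the filter, so it was fitted without one, which departs from the planned design. Named were the members, genes within 500 kb, called genes and the most abundant gene of each list, and the 5 most similar genes to each member. A few further list members are named for their role or for a low adjusted p under the size limit, chosen after their values were seen. The members and lists were chosen with earlier results of these data known. The labels do not say whether pigs were littermates. The workflow was tested on simulated data. DESeq2 1.42.0, size factors, filters, blocks, covariates and left-out libraries were the alternatives.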

Additional observations from a re-analysis of the deposited data

Results flagged for a closer look

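In 54 sets of 5 libraries (the members and the summed marker lists, by diet), 6 had a library whose gap to the next exceeded Dixon's 95% limit, where chance alone gives about 1 in 20. PRNP was at 0.09789 CPM in WCOC replicate 3 and at 0.229 to 0.2619 CPM in the other 4 of that diet. The 3 Y-linked genes summed to 0 CPM in DOP replicate 5 and to 46.89 to 49.48 CPM in the others. The skeletal muscle list was at 50530 CPM in the same library, against 36.58 to 11080 CPM. The T and B cell list was at 25.31 CPM in DOP replicate 2, against 4.381 to 10.2 CPM. The epidermis list reached 128.6 CPM in WCOC replicate 5, against 2.649 to 26.79 CPM, and the fibroblast and progenitor list 28780 CPM in C replicate 3, against 19500 to 22130 CPM. No PRND value was singled out in this way.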

How the results depend on the processing

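The PRND difference between DOP and C kept its direction in each of the 9 alternatives and in the 10 fits without 1 library (3.52 to 4.11). PRND was picked for this difference and no DOP library overlapped C. Leaving out 1 library could thus not change the direction, and these values are a description. It moved by more than the spread between pigs with flow cell as a covariate (6.37) and with flow cell B alone (6.35, chosen after seeing the data, as were the Y-linked and muscle covariates). WCOC against DOP was −6.40 with flow cell as a covariate and −4.02 to −3.33 without 1 library. WCOC against C ran from −0.20 to 0.55 without 1 library, and was −0.03 with flow cell as a covariate. PRNP in DOP against C was −0.32 with flow cell as a covariate and −0.33 with flow cell B alone, against 0.25. PRNP passed no threshold in any fit (adjusted p 0.2889 to 0.7465), and DESeq2 gave no adjusted p for it in WCOC against C. PRNP with filterByExpr, both members with at least 10 counts in every library, and PRND in WCOC against C with only these diets or flow cell A alone could not be fitted, because the filters removed them.

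The counts of called genes moved more. DOP against C had 114, but 496 with DESeq2 (2759 at an unadjusted p under 0.05), 2 with only these diets and 38 with flow cell B alone, and 0 to 200 without 1 library, with 0 without C replicates 3 or 5 or DOP replicates 2 or 4 and 200 without C replicate 1. WCOC against C had 933, 486 with flow cell A alone and 468 (without WCOC replicate 1) to 1163 without 1 library. WCOC against DOP had 1158, 1 with flow cell as a covariate and 639 (without WCOC replicate 1) to 1291 without 1 library. DESeq2 called 1 ZIP gene and 1 testis gene in DOP against C where edgeR called 0 of each, and 2 testis genes where edgeR called 1 in WCOC against DOP. Over all genes DESeq2 called 496 and 1424 in these 2 comparisons.

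The replicate numbers share no stated pairing, and same-numbered libraries correlated at −0.4953 to 0.3449, with 1 of 15 closest to its own number. With them as a replicate block, PRND in DOP against C was 3.93, and 0 genes were called in DOP against C (1950 at an unadjusted p under 0.05), 473 in WCOC against C and 561 in WCOC against DOP.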
